A study of Arabidopsis thaliana with 39 samples.

Results

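TOPLESS (TPL) is a plant corepressor of the Groucho/Tup1 type. It does not bind DNA itself: transcription factors that carry a short repression motif recruit it to promoters, where it acts with histone deacetylases. LEUNIG (LUG) is a corepressor of the same type that works with an adaptor of the SEUSS family and is best known for its role in flower development. MORC proteins use ATP to clamp onto DNA and condense it, and plants that lack them derepress silenced sequences. The pericentromeres of Arabidopsis are the heterochromatic sequence around the centromeres, rich in transposable elements and pseudogenes and poor in genes, so a peak of a corepressor there marks either one of the genes scattered through this sequence or the sequence between them.

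The peaks described here are the 490 of the 10267 TPL peaks of WT whose midpoint lay in the pericentromere, 4.77% of the list. The pericentromere was taken, in TAIR10 coordinates, as 11.5 to 17.7 Mb of chromosome 1, 1.1 to 7.2 Mb of chromosome 2, 10.3 to 17.3 Mb of chromosome 3, 1.5 to 6.3 Mb of chromosome 4 and 9.0 to 16.0 Mb of chromosome 5, together 31.1 Mb. The rest of the 5 chromosomes, 88.05 Mb with 9777 peaks, is called the arms. No measured enrichment entered this choice, so position chose the peaks and the density below counts them.

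Lines of Arabidopsis thaliana (Col-0) with a 3xFLAG-tagged corepressor under its native promoter, labelled TPL or LUG, were profiled by anti-FLAG ChIP-seq in floral tissue of WT and of *morchex*, the sextuple mutant of *morc1*, *morc2*, *morc4*, *morc5*, *morc6* and *morc7*. Each of the 4 peak lists came from 1 library, so nothing below is a test between genotypes or proteins, and every interval on a share or a density is an exact 95% interval that covers counting error only. RNA-seq was made from WT (Col-0) and *morchex* before a heat treatment (T0), with 3 libraries each, and from wild-type Ler and the *lug* mutant in Ler, also with 3 libraries each. Libraries of WT and *morchex* labelled 0.5 and 48 h, from the heat and the recovery, entered the statistical fit behind the T0 comparison. Their levels are not described. The study's primer table leaves the identity of the tagged TPL protein in doubt. The primers it gives for cloning TPL match the reference only at the related gene TPR1 (AT1G80490, primer span chr1:30261097-30268312). Those for LUG match at LUG itself (AT4G32551, primer span chr4:15706486-15713356). The lists and peaks are called TPL here because their labels are, and which member of the TPL family carried the tag was not tested. The labels and the methods also name anti-FLAG antibodies of different suppliers. The number of reads behind a peak list is not given in the files used here.

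The RNA-seq libraries at T0 held 8.61 to 11.8 M (mega) expected counts in WT and 12.8 to 17.9 M expected counts in *morchex*, and those of Ler and *lug* 11.4 to 15.9 M expected counts. They are labelled as floral tissue, but the floral genes AP1, AP3 and PI were low. Levels are given in TPM, transcript abundance scaled to transcript length and library size. AP1 reached at most 0.08 in the 12 libraries, AP3 at most 0.65 and PI at most 2.03. The floral gene AG was detected in each of the 12, at 0.71 to 3.77 TPM. SEP3 was higher, at 3.54 to 15.8 TPM in WT and 6.69 to 14.8 TPM in *morchex* at T0. In Ler, SEP3 lay between 6.02 and 24.7 TPM, and in *lug* between 29.4 and 90.8 TPM. How far the tissue of the RNA-seq matches that of the ChIP-seq was not tested, and transcript levels are set beside the peaks with that limit.

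The sequence under the strongest peaks is shown first, as the plain letters at which the fold enrichment reached its highest point (the summit, with 60 bp on each side). Only windows outside every annotated gene were used, 229 of the 490. The strongest of these on each chromosome, all on the plus strand of TAIR10, lay at chr1:11771308-11771428, chr2:6018293-6018413, chr3:16186956-16187076, chr4:2333616-2333736 and chr5:15423543-15423663, and each is named by the gene with the nearest start site. Capitals mark matches on either strand to any of 8 short motifs: the G-box (CACGTG, bound by bHLH and bZIP factors), a GAGA repeat (GAGAGA), the site II element (GGCCCA), the telo-box (AAACCCT), the W-box (TTGACC, bound by WRKY factors), an auxin element (TGTCGG), the GCC-box (GCCGCC) and the CArG box.
FdC2: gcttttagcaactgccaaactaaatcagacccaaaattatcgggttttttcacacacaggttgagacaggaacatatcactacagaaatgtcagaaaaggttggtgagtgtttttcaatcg
AGL44: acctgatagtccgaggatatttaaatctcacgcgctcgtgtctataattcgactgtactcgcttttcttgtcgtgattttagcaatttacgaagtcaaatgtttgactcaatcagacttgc
AT3G44610: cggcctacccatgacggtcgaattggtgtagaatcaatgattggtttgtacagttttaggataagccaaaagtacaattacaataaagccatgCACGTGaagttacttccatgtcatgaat
AT4G04630: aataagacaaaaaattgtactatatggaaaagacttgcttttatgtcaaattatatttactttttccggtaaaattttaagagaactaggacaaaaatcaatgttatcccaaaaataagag
TSBtype2: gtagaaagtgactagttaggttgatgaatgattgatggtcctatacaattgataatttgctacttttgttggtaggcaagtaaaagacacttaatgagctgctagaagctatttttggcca

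Of these 5 windows, only that beside AT3G44610 held a match, a G-box. The G-box was the motif with the highest ratio between pericentromeric summit windows and promoters of the same region, so the next 4 windows that hold one outside genes, by -log10 q, are printed too. They lay at chr3:11798752-11798872, chr5:10452045-10452165, chr5:9944957-9945077 and chr5:9575862-9575982, and 32 of the 229 windows outside genes held a G-box.
AT3G30165: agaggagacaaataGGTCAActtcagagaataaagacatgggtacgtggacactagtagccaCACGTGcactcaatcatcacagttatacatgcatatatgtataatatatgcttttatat
LSH1: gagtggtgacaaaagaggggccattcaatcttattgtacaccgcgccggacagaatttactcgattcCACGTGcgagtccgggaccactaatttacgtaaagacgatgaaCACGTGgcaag
AT5G27920: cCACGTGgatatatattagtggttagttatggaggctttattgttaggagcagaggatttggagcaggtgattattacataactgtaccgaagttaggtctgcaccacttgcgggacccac
Cand8: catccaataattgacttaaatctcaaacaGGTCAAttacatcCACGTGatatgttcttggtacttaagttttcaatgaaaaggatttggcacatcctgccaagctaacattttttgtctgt

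TPL peaks were sparse in the pericentromere. There were 15.8 peaks per Mb (14.4 to 17.2) against 111.0 per Mb on the arms (108.9 to 113.3), a 7.05-fold difference. The peaks covered 1.11% of the pericentromere and 9.91% of the arms. The lower density held on each of the 5 chromosomes, but its size varied widely. Chromosome 1 had 130 pericentromeric peaks (21.0 per Mb), chromosome 3 had 133 (19.0 per Mb) and chromosome 5 had 135 (19.3 per Mb). Chromosome 4 had 50 (10.4 per Mb, 7.73 to 13.7) and chromosome 2 only 42 (6.89 per Mb, 4.96 to 9.31). The intervals of chromosomes 2 and 4 lay below those of the other 3, while the arms of the 5 chromosomes stayed between 106.8 and 117.9 peaks per Mb. The fold between arms and pericentromere was therefore 5.31 on chromosome 1, 5.71 on chromosome 3, 5.75 on chromosome 5, 10.3 on chromosome 4 and 17.1 on chromosome 2.

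**Figure D1:**
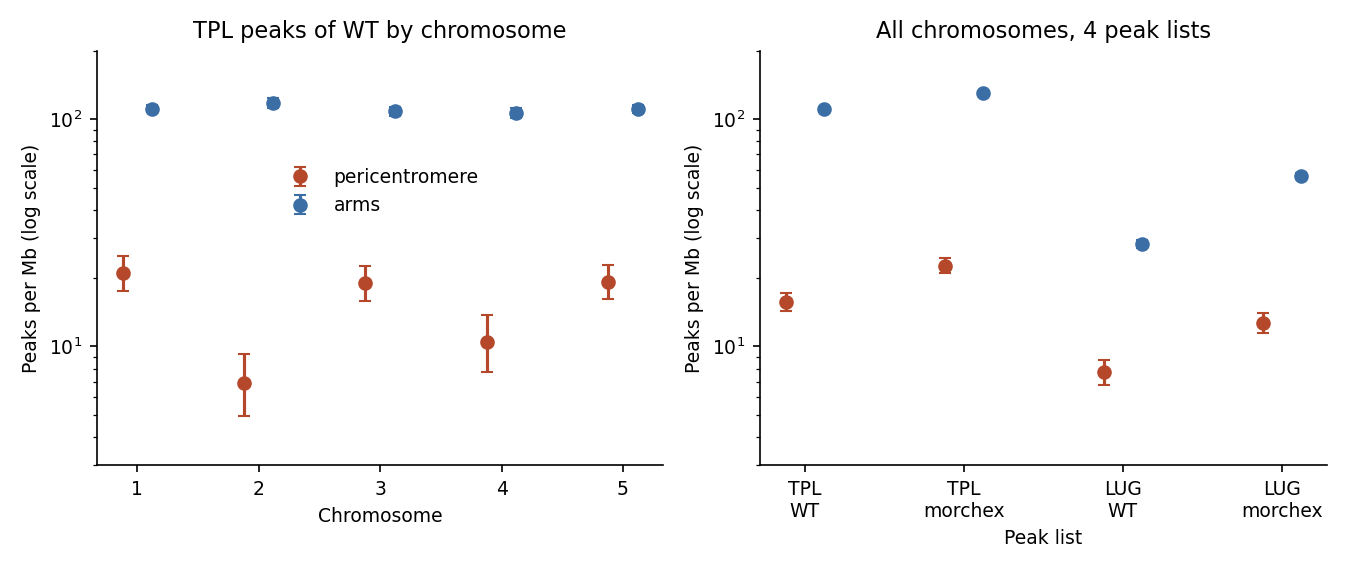
Peaks per Mb (log axis) in the pericentromere and on the arms, for TPL in WT by chromosome (left) and for the 4 peak lists over all chromosomes (right), with exact Poisson 95% intervals of the number of peaks from 1 library each. Pericentromeric points lie below the points of the arms on all 5 chromosomes and in all 4 lists, lowest on chromosome 2 at 6.89 peaks per Mb.

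Genes were sparser there too, although less so than peaks. The pericentromere held 108.8 protein-coding genes per Mb and the arms 273.3, a 2.51-fold difference, which left 14.5 TPL peaks for every 100 protein-coding genes in the pericentromere and 40.6 on the arms, a 2.81-fold difference. Reads that map to several places were not kept by the authors, and repeats can hide peaks. Windows of 50 bases that occur once in the genome began at 84.1% of pericentromeric positions and at 97.5% of arm positions, and per Mb of such single-copy sequence the fold was 6.08 in place of 7.05. The peaks themselves lay in single-copy sequence. The median peak was single-copy over its whole width in both regions, and 1 of the 490 pericentromeric peaks was single-copy over less than 50% of it.

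The density of peaks fell steadily from the border inwards. The outermost 0.5 Mb held 193 peaks (38.6 per Mb) and the next 0.5 Mb held 153 (30.6 per Mb). Between 1 and 1.5 Mb from the border the density was 17.0 per Mb, between 1.5 and 2 Mb it was 7.4, and between 2 and 3 Mb only 19 peaks remained (2.16 per Mb, 1.3 to 3.37). Just outside the border, the last 0.5 Mb of the arms held 75.6 peaks per Mb. Thus, 346 of the 490 peaks lay in the outer 1 Mb on either side, where the pericentromere meets the arms. Genes thinned out over the same distance, from 207 to 50.8 per Mb, but the share of genes with a TPL summit in the promoter fell as well. A promoter was taken as 1000 bp upstream to 200 bp downstream of the start site. Of the protein-coding genes within 0.5 Mb inside the border, 7.65% (6.1 to 9.44%) had a summit there, against 12.7% (10.8 to 14.7%) within 0.5 Mb outside it. Between 2 and 3 Mb inside it was 1.12% (0.364 to 2.59%). The peaks were also spread unevenly: the median gap between neighbouring pericentromeric peaks was 9.05 kb against 3.61 kb on the arms, 9 gaps were over 500 kb and the longest was 2433 kb, whereas the longest gap on the arms was 185.9 kb. Even so, 63.9% of the pericentromeric peaks had another within 5 kb (80.6% on the arms).

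**Figure D2:**
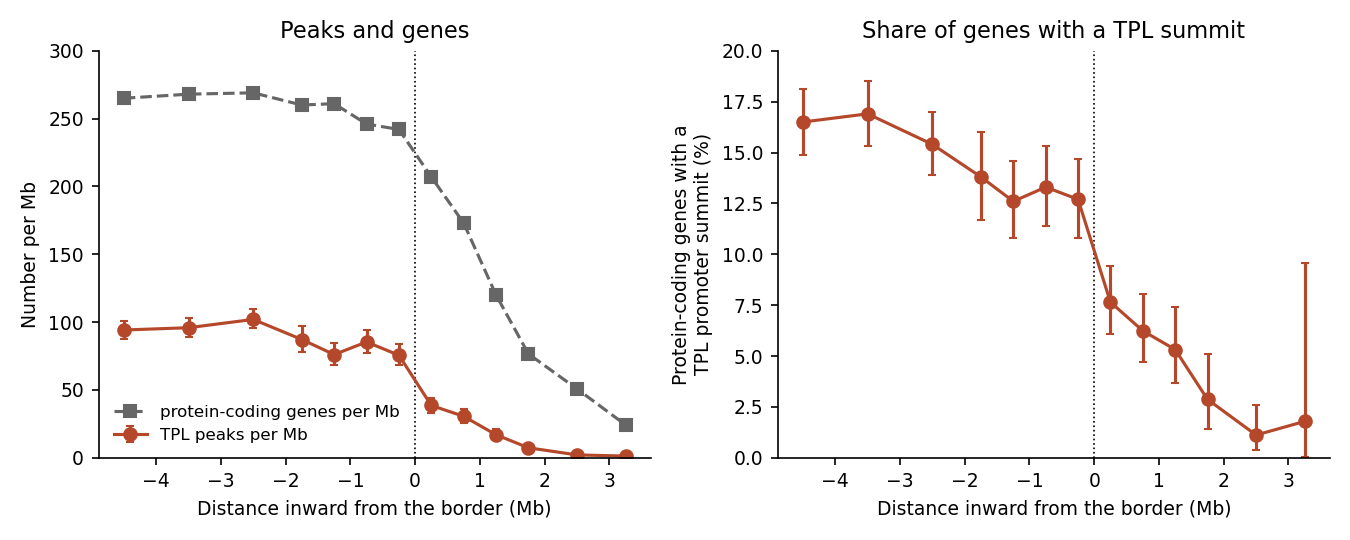
Left, TPL peaks of WT (with exact Poisson 95% intervals) and protein-coding genes per Mb by distance from the pericentromere border, summed over the 10 borders, with positive distances inside. Right, the share of protein-coding genes with a TPL promoter summit, with exact 95% intervals, which was 12.7% just outside the border and 7.65% just inside.

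The pericentromeric peaks were slightly narrower than those on the arms and had a similar enrichment. Their width ran from 227 to 5492 bp with a median of 525 bp, against a median of 567 bp and a maximum of 12350 bp on the arms. Among peaks with a -log10 q of at least 10 the medians were further apart, at 960.5 bp for 126 pericentromeric peaks and 1452 bp on the arms. The difference lay in the wide peaks: 92 pericentromeric peaks (18.8%, 15.4 to 22.5%) were over 1000 bp wide, against 26.4% (25.5 to 27.3%) on the arms, and 20 (4.08%, 2.51 to 6.23%) were over 2000 bp wide against 9.15% (8.59 to 9.74%). Only 2 were over 3000 bp wide, against 382 on the arms. The median fold enrichment over the local background was 2.37 in the pericentromere and 2.27 on the arms, with interquartile ranges of 2.08 to 3.04 and 1.98 to 2.87. The median -log10 q was 5.00 in both, and 25.7% (21.9 to 29.8%) of the pericentromeric peaks and 23.9% (23.0 to 24.7%) of those on the arms had a -log10 q of at least 10. The highest values were found on the arms, where -log10 q reached 70.3 against 50.4 in the pericentromere.

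**Figure D3:**
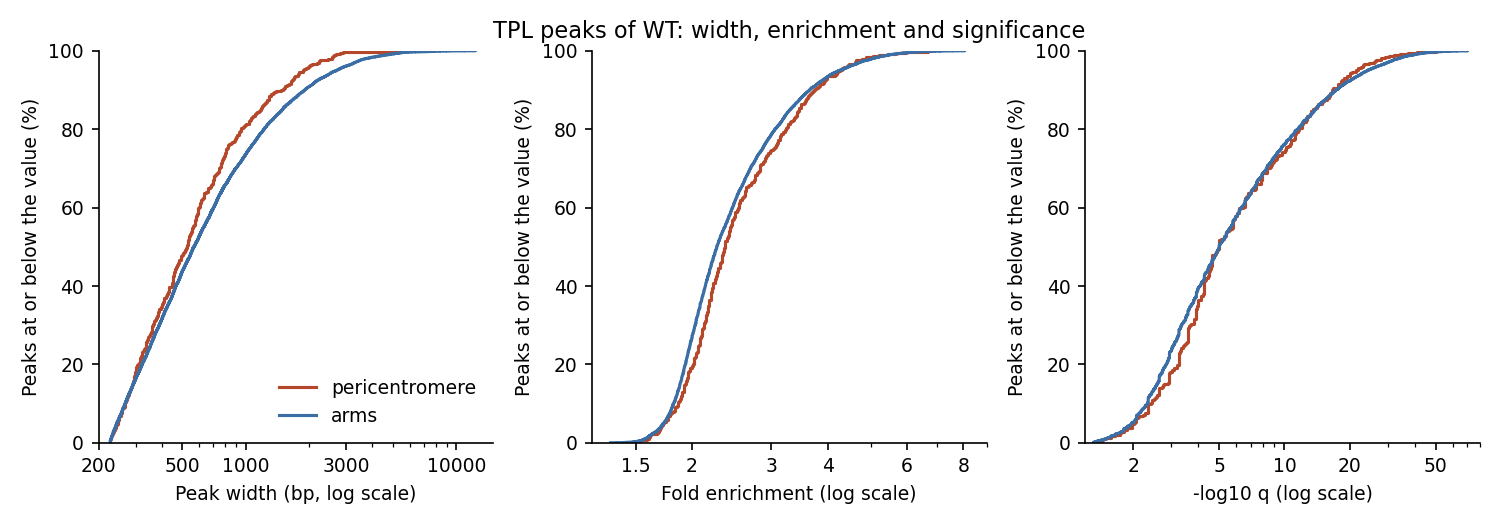
Cumulative share of the 490 pericentromeric and 9777 arm TPL peaks of WT by width, fold enrichment and -log10 q (log axes). The curves part above 500 bp in width, where the pericentromeric peaks run out sooner (18.8% over 1000 bp against 26.4%), and nearly coincide in -log10 q (median 5.00 in both).

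The strongest pericentromeric peak of each chromosome was called in all 4 lists. On chromosome 3 it was a peak of 2059 bp (chr3:16186239-16188297), 29th of 10267 by -log10 q, with a fold of 6.69 and a -log10 q of 50.4. Its summit lay 5349 bp downstream of the start of AT3G44610, between genes. TPL in *morchex* had a fold of 9.23 there, LUG in WT 4.29 and LUG in *morchex* 5.15. On chromosome 4, a peak of 2565 bp (chr4:2331627-2334191, rank 37) spanned AT4G04630 and had its summit 862 bp upstream of the start, with a fold of 6.57 for TPL in WT. It ranked 10th of 2721 LUG peaks in WT, with a fold of 5.56, and 8th of 5351 in *morchex*, with a fold of 6.68, the highest LUG rank among these 5 sites. On chromosome 2, the peak (chr2:6017800-6019191, rank 128, fold 5.68) had its summit 205 bp upstream of AGL44, also named ANR1, a MADS-box gene of the root response to nitrate. On chromosome 1, the peak (chr1:11770145-11771832, rank 185, fold 5.45) had its summit 253 bp beyond the end of FdC2, which encodes a ferredoxin of the plastid. On chromosome 5, the peak (chr5:9515028-9515994, rank 235, fold 4.60) lay over the start of TPR3, itself a gene of the TPL family of corepressors, with the summit 126 bp upstream of the TPR3 start and within an overlapping lncRNA gene on the other strand. These 5 sites comprised 3 promoters and 2 sites between genes. Another strong site in all 4 lists (chr3:16481195-16482454, rank 86, fold 5.97) lay 2440 bp upstream of NRT2.6, a gene of the nitrate transporter family, with a fold of 2.34 for LUG in WT. The nearest genes differed widely in transcript level: AGL44 was at 0 TPM in each WT library at T0, whereas FdC2 had 102 ± 7.66 TPM (SD, n = 3).

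Wide peaks were few, and 14 of the 20 over 2000 bp lay in the outer 1 Mb, as did 346 of all 490. The widest (5492 bp, chr1:11626352-11631843, rank 1162, fold 3.62) had its summit in an intron of KAN2, a KANADI factor of abaxial organ identity. The next (3476 bp, chr1:11620021-11623496, fold 3.46) had its summit 2887 bp beyond the end of RCD1, a regulator of responses to oxidative stress. These peaks of more than 3000 bp were neighbours, 0.129 and 0.122 Mb inside the border. The others were 2904 bp wide near AT1G47610, 2804 bp wide over the coding sequence of NIT1, a nitrilase, and 2692 bp wide beside PRE1, a helix-loop-helix protein of growth regulation. All 5 were overlapped in the 3 other lists, and their nearest genes ranged from 0 TPM (AT1G47610) to 2350 ± 455 TPM (NIT1, SD, n = 3) in WT at T0.

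The border itself was a fixed coordinate, and the density dropped across it. It was 75.6 peaks per Mb (68.2 to 83.6) in the last 0.5 Mb outside and 38.6 per Mb (33.3 to 44.4) in the first 0.5 Mb inside. The 10 peaks nearest to it inside had a median -log10 q of 4.58 (1.58 to 17.8) and a median fold of 2.33, and lay 0.086 to 56.8 kb from it. The 10 nearest outside had a median -log10 q of 7.62 (3.49 to 23.0) and a median fold of 2.72. At GA2OX4, a gibberellin oxidase, the inner peak lay 0.086 kb from the line.

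Nearly all pericentromeric TPL peaks of WT were called in *morchex* too. At an overlap of 1 bp or more, 473 of 490 (96.5%, 94.5 to 98.0%) were overlapped by a TPL peak of *morchex*, against 91.1% (90.6 to 91.7%) on the arms and 91.4% of all TPL peaks of WT. LUG in WT overlapped 112 (22.9%, 19.2 to 26.8%), against 20.4% (19.6 to 21.2%) on the arms and 20.5% overall. LUG in *morchex* overlapped 202 (41.2%, 36.8 to 45.7%), against 37.7% (36.7 to 38.6%) on the arms and 37.8% overall. The interval of the share with TPL in *morchex* lay above that of the arms, and the intervals of both LUG shares included the values of the arms. On single chromosomes, the share with TPL in *morchex* was 95.6% to 100% in the pericentromere and 89.8% to 92.0% on the arms, higher in the pericentromere on each of the 5. The share with LUG in WT was higher in the pericentromere on chromosomes 1, 2 and 5 and lower on chromosomes 3 and 4.

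The overlap depended strongly on the strength of the TPL peak. All TPL peaks of WT were divided at the quartiles of -log10 q into 4 classes. In the highest class, each of the 130 pericentromeric peaks was overlapped by TPL in *morchex*, 59.2% by LUG in WT and 83.1% by LUG in *morchex*, and the corresponding shares of the arms were 100%, 60.8% and 84.4%. In the lowest class, 87.1% (78.5 to 93.2%) of the 93 pericentromeric peaks were overlapped by TPL in *morchex*, against 72.5% on the arms, and 3.23% by LUG in WT, against 1.33%. The regions differed most in the share with TPL in *morchex* among these weak peaks. Wide peaks were overlapped more often as well, and a wider interval also meets more peaks of any list. Of the 92 peaks over 1000 bp, 52.2% (41.5 to 62.7%) were overlapped by LUG in WT, against 52.5% (50.5 to 54.4%) on the arms. Among the 398 narrower ones the regions differed beyond these intervals. LUG in WT overlapped 16.1% (12.6 to 20.1%) of them against 8.91% (8.26 to 9.59%) on the arms, and LUG in *morchex* 32.2% (27.6 to 37.0%) against 23.9% (22.9 to 24.9%). The smaller difference over all widths thus stood beside a smaller share of wide peaks in the pericentromere. Peaks were not divided by width and -log10 q together, so the part of strength in the difference among narrower peaks was not tested.

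**Figure D4:**
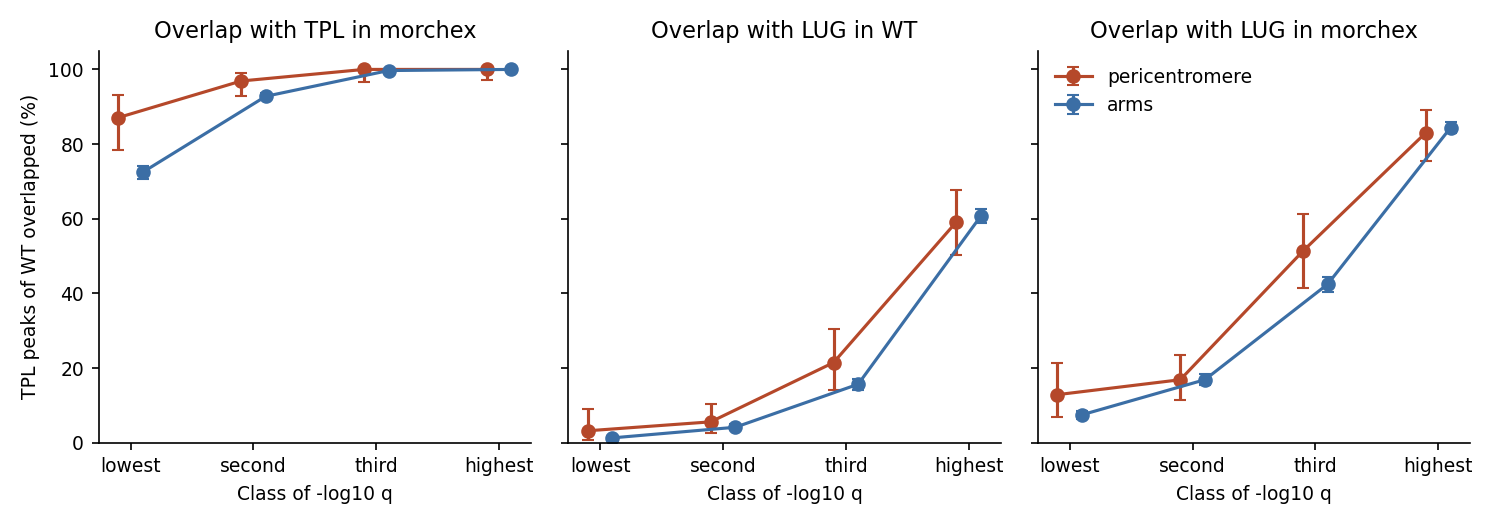
Share of TPL peaks of WT overlapped by at least 1 bp in each other list, by class of -log10 q (cut at its quartiles) over all 10267 peaks, in the pericentromere and on the arms, with exact 95% intervals for counting error. Both regions climb together, and they part most in the lowest class for TPL in *morchex* (87.1% and 72.5%).

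The members can be ordered by the lists they share. In all 4 lists were 106 peaks (21.6%), and LUG peaks of WT or *morchex* met 208 (42.4%, 38.0 to 47.0%). The 112 with LUG in WT had a median TPL fold of 3.47 and a median width of 876 bp. The 96 with LUG in *morchex* but not in WT had a median fold of 2.67 and a width of 626 bp, and the 265 with TPL in *morchex* and no LUG peak a median fold of 2.19 and a width of 423 bp. The 17 peaks found in no other list (3.47%, against 8.73% on the arms) were weak, with a -log10 q of 1.73 to 4.63 and a median width of 289 bp. The strongest of them lay 970 bp upstream of AT5G28400 (fold 2.37), 132 bp upstream of ARLA1A, an ARL-type GTPase gene (fold 2.21), 1963 bp upstream of the lncRNA gene AT5G04405 in a coding exon of another gene (fold 2.19), in NIT1 (fold 2.02) and 584 bp upstream of AT1G32690 (fold 2.01). That in NIT1 began just past the end of the wide peak over the same gene.

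Read from the other lists, the pericentromere looked different. TPL in *morchex* had 706 pericentromeric peaks, 5.78% of its 12224. Among its 10267 strongest, as many as WT has, 615 were pericentromeric (5.99%, 5.54 to 6.47%), against 490 (4.77%, 4.37 to 5.2%) in WT. With 1 library each, a difference between genotypes cannot be told apart from one between libraries. Of the 706, 66.9% (63.2 to 70.3%) were overlapped by TPL in WT, against 79.2% on the arms. LUG in WT had 239 pericentromeric peaks, of which 120 (50.2%, 43.7 to 56.7%) met a TPL peak of WT, against 98.0% on the arms. The 119 pericentromeric LUG peaks without TPL had a median fold of 1.43, and 63.0% of them were single-copy over less than 50% of their width, against none of the 120 with TPL.

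Most pericentromeric peaks lay close to a gene, as they did on the arms. The summit was within 1000 bp of an annotated start site for 64.5% (60.1 to 68.7%) of them, against 65.0% on the arms, and the median distance was 570.5 bp against 572 bp. In 218 (44.5%, 40.0 to 49%) it lay in a promoter, against 47.2% on the arms. By position, 114 summits (23.3%) were in a promoter outside any gene, 127 (25.9%) in a non-coding part of an exon, 79 (16.1%) in a coding exon, 32 (6.53%) in an intron and 138 (28.2%, 24.2 to 32.4%) elsewhere between genes, where the arms had 26%. The nearest start belonged to a protein-coding gene for 80.4% (76.6 to 83.8%) against 86.6%, and to a gene annotated as a pseudogene, without the tag transcribed, for 22 peaks (4.49%, 2.83 to 6.72%) against 0.828%. Few pseudogenes had a summit in the promoter: 6 of the 3346 pseudogenes of this class in the pericentromere had one (0.179%, 0.0658 to 0.39%), against 182 of its 3385 protein-coding genes (5.38%, 4.64 to 6.19%). The class name is no measure of transcription, since AT3G28160, one of the 6, had 1.45 ± 0.613 TPM in WT at T0 (SD, n = 3). On the arms, 7.71% of 571 such pseudogenes and 17.5% of 24059 protein-coding genes had one.

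Far from genes, peaks were few. Only 18 (3.67%, 2.19 to 5.74%) lay over 3000 bp from every annotated gene, against 1.84% (1.58 to 2.13%) on the arms. The strongest was a peak of 2244 bp (chr3:11801793-11804036, fold 4.25), 4009 bp upstream of AT3G30165 and without a LUG peak. A second, 729 bp wide (chr3:11806484-11807212, fold 3.43), lay 3792 bp upstream of BR6OX2, the enzyme of the last step of brassinolide synthesis, and was found in all 4 lists. With the peak in the promoter of AT3G30165 (fold 4.77), whose sequence with 1 G-box and 1 W-box is printed above, these 3 peaks lay within 10 kb of each other. The other 3 of the 5 strongest were near MCT1 (fold 3.55), near AT5G38005 (fold 3.41) and near the pseudogene AT5G28641 (fold 3.24), of which the last had no LUG peak. AT5G38005, annotated as an ncRNA, had 6.87 ± 1.12 TPM in *morchex* against 0.637 ± 0.636 TPM in WT at T0 (SD, n = 3), with a log2 fold change of 3.31 ± 0.72 (SE) and an adjusted p = 0.092 by edgeR, so it was not called.

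Around the summits, GC content and every listed motif but the site II element were close to the values on the arms. The summit windows were richer in G and C than the sequence just upstream of start sites. These are unlike kinds of sequence, since 25.9% of pericentromeric summits lay in a non-coding part of an exon and 16.1% in a coding exon. In windows of 201 bp centred on the summit, the median GC content was 35.3% in both regions, against 30.8% in the 201 bp that end at the start sites of pericentromeric protein-coding genes and 31.3% at those of the arms. The G-box was found in 12.2% of pericentromeric and 12.6% of arm summit windows, against 3.99% and 5.89% of the promoters. In the highest class of -log10 q it was found in 18.5% and 18.2%. The GAGA repeat was in 30.6% and 28.0% of summit windows, against 18.6% and 17.2% of promoters, and the auxin element in 7.35% and 6.65%, against 3.07% and 3.53%. The site II element went the other way, with 2.86% (1.57 to 4.75%) and 5.24% (4.8 to 5.7%) of summit windows against 7.62% and 13.4% of promoters. It was thus rarer at pericentromeric than at arm summits. In the highest class of -log10 q its shares were 0.769% (0.0195 to 4.21%) and 6.44% (5.5 to 7.49%). The telo-box (5.10%), W-box (8.98%), GCC-box (3.06%) and CArG box (2.65%) of pericentromeric summit windows differed by less than 1 percentage point from those of the arms. Promoters of the 182 pericentromeric genes with a TPL summit held a G-box in 13.2%, and those of the 3203 without in 3.47%. Between these 2 sets of promoters the median GC content was 30.3% and 30.8%. The GAGA repeat was in 22.0% (16.2 to 28.7%) and 18.5% (17.1 to 19.8%), and the auxin element in 6.04% (3.06 to 10.6%) and 2.90% (2.35 to 3.55%). On the arms, GC content was 31.3% and the GAGA repeat was in 17.2% of promoters both with and without a summit. The G-box was in 10.8% (9.93 to 11.8%) of arm promoters with a summit and 4.84% (4.54 to 5.14%) of those without. For the auxin element these shares were 4.53% (3.93 to 5.21%) and 3.32% (3.07 to 3.57%). A match is no more than these letters in the window.

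Pericentromeric genes with a TPL summit were mostly transcribed. At T0, the median level of 179 such protein-coding genes was 7.9 to 10.5 TPM in the 3 WT libraries, and 78.2% to 79.3% reached 1 TPM. The 2992 pericentromeric genes without a summit had a median of 0.0 TPM in each WT library, and 39.3% to 39.8% reached 1 TPM. On the arms, the medians were 6.57 to 6.86 TPM with and 3.1 to 3.37 TPM without a summit. The share of genes with a summit was lower in the pericentromere at each transcript level. At a mean of 10 TPM or more, 12.3% (9.93 to 14.9%) of pericentromeric genes and 21.5% (20.6 to 22.4%) of arm genes had a summit, and between 1 and 10 TPM the shares were 8.97% (6.83 to 11.5%) and 22.2% (21.2 to 23.2%). Below 0.1 TPM, where 50% of the pericentromeric and 25.7% of the arm genes lay, they were 1.7% and 7.91%.

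**Figure D5:**
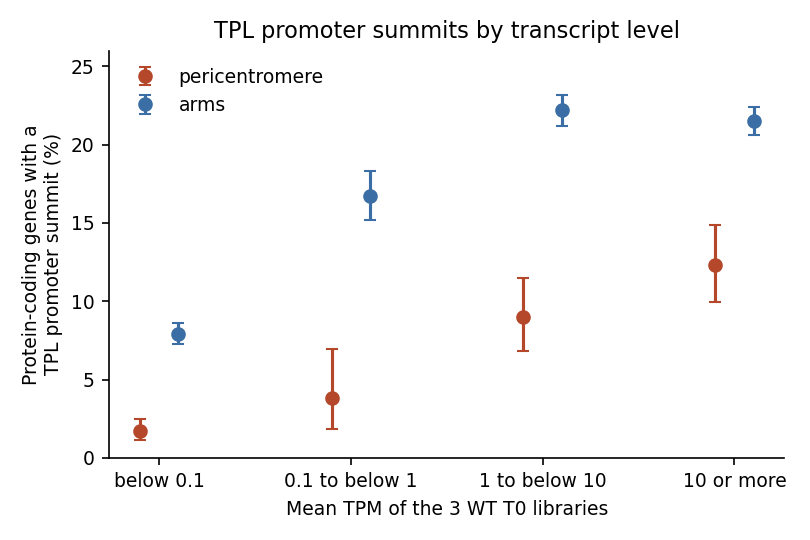
Share of protein-coding genes with a TPL promoter summit by mean level in the 3 WT libraries at T0 (in TPM), in the pericentromere and on the arms, with exact 95% intervals. The pericentromeric share is the lower at each level and runs from 1.7% to 12.3%.

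A list of 48 genes of known function was drawn up for the pericentromere, of which 47 have their start inside it (the light regulator DET1 lay outside). A TPL summit was found in 14 of the 47 promoters, against 5.38% of all 3385 pericentromeric protein-coding genes. The list was drawn up by hand from well-studied genes, with earlier results of these data known. Its share is therefore no measure of a pathway and no test against the 5.38%. Of the 2 corepressor genes, TPR3 had a summit and the LUG partner SEU had none. In the group of flower, meristem and organ growth genes, 6 of 11 had one: ANR1, GIF1, SEP4, GTL1, KNAT1 and MYB21. GIF1 (AN3), a coactivator of leaf growth, had a fold of 4.60 and a rank of 488, and SEP4, a floral MADS-box gene, a fold of 4.21 and a rank of 764, and both were found in all 4 lists. KNAT1 (BREVIPEDICELLUS), a homeobox gene of the meristem, and MYB21, a stamen factor, had weak peaks with a -log10 q of 5.00 and 4.83 and no LUG peak. Of the 4 auxin and cytokinin genes, ARF8 (fold 3.94, rank 976, all 4 lists) and GATA23 (-log10 q 1.45, rank 10179) had a summit, and AHK2 and DFL2 had none.

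Besides ARF8, the list held 8 ARF genes of chromosome 1, of which ARF12 to ARF15 and ARF20 to ARF22 lie near each other and ARF23 lies apart. None of the 8 had a TPL summit, and none had a mean above 0.0467 TPM in WT or *morchex* at T0. Among all pericentromeric protein-coding genes under 0.1 TPM, 1.7% had a summit, so 0 of 8 does not set these genes apart. Of the 8 jasmonate and defence genes, 3 had one: LOX2, a lipoxygenase of jasmonate synthesis (-log10 q 12.1), OPR3, a reductase of the same pathway (-log10 q 4.90), and MYB30, a defence regulator (-log10 q 8.94, all 4 lists). MYC2, PR1, ADR1, MPK3 and MEKK1 had none. MYC2, the bHLH activator of jasmonate responses, had a promoter summit of LUG in WT and in *morchex*, and ADR1 and MPK3 had one of TPL in *morchex*. The clock gene LUX (-log10 q 3.33) was the 1 of 3 light and clock genes with a summit, and the nitrate reductase gene NIA2 (-log10 q 4.44) the 1 of 7 metabolism, stress and RNA genes, whereas no gene of the flavonoid and brassinosteroid group (4 genes) did.

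Calls between *morchex* and WT were rare among all genes tested, and those among the genes with a pericentromeric TPL summit do not set them apart. Of the 232 genes of any kind with a pericentromeric TPL promoter summit, 153 had enough counts to be tested. With edgeR's quasi-likelihood test, calling genes at a fold change over 2 and a p-value under 0.05 after Benjamini-Hochberg adjustment, none rose and 1 fell in *morchex* at T0, against 0.244% of all 18827 genes tested that rose and 0.0478% that fell. At an unadjusted p-value under 0.05, 8 were higher and 7 lower, where 3.4% of all genes were higher and 3.94% lower. DESeq2 also called none higher and 1 lower, against 0.298% and 0.0691% of all genes. The median log2 fold change was -0.02, against -0.01 over all genes. Of the 1527 tested pericentromeric genes without a TPL summit, 38 rose (2.49%, 1.77 to 3.4%) and 1 fell. In the whole genome 46 rose. The upper limit for the genes with a summit, 2.38%, lay inside the interval of those without, so these counts do not set the classes apart. The classes also differed in kind. Of the 153 tested genes with a summit 151 were protein-coding, whereas 3203 of all 7910 without one were.

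The gene that fell was AT3G28220, which encodes a protein of the TRAF-like family. Its level was 108, 46.8 and 154 TPM in the 3 WT libraries and 22.2, 34.7 and 18.5 TPM in those of *morchex*. The groups did not overlap, and the log2 fold change was -2.06 ± 0.41 (SE, adjusted p = 0.047 by edgeR). The call was lost when any library but WT replicate 2 was left out and in a fit to the T0 libraries alone (adjusted p = 0.098 by edgeR), and over all settings the adjusted p ran from 0.0044 to 0.29. In Ler it had 31.6, 17.4 and 5.70 TPM and in *lug* 1.85, 3.91 and 3.99 TPM, again without overlap, but with an adjusted p = 0.41 by edgeR (log2 fold change -2.35 ± 0.66, SE) it was not called there. Its TPL peak was of middling strength (645 bp, chr3:10523844-10524488, fold 2.91, rank 3042), with the summit 192 bp upstream of the start, and was overlapped by TPL and LUG in *morchex* and not by LUG in WT.

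TPR3, SEP4, ARF8 and AFP3, all with strong promoter peaks, were not called and serve as examples, not as the strongest in order. AT4G04630 (rank 37) was not called either, with a log2 fold change of -0.05 ± 0.36 (SE), and AGL44 (rank 128) was not tested. NAC014 (rank 424) had 4.39, 4.46 and 4.39 TPM in WT and 3.81, 3.66 and 3.44 TPM in *morchex*. Its groups did not overlap, but it was not called (adjusted p = 0.69 by edgeR). TPR3 had 2.37, 4.10 and 3.03 TPM in WT and 2.91, 2.70 and 3.21 TPM in *morchex*. SEP4 had 16.3, 20.5 and 16.7 TPM in WT and 17.8, 15.7 and 17.3 TPM in *morchex*. For both the groups overlapped, with log2 fold changes of -0.12 ± 0.19 and -0.09 ± 0.15 (SE). ARF8 had 6.04, 7.43 and 6.3 TPM in WT and 7.46, 8.96 and 7.88 TPM in *morchex*, which did not overlap, but was not called (adjusted p = 0.76 by edgeR). AFP3, a gene of the family that binds ABI5 of abscisic acid signalling, with a peak of rank 676, had 14.4, 17.5 and 30.5 TPM in WT and 10.7, 11.3 and 12.1 TPM in *morchex*, without overlap and without a call (adjusted p = 0.39 by edgeR). Of the 14 listed genes with a summit, 10 were tested and none was called. GATA23, KNAT1 and MYB21 had a TPM of 0 in the 6 libraries.

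In *lug* against Ler, none of the 145 tested genes with a pericentromeric TPL summit was called by edgeR in either direction (upper limit 2.51% for each), against 0.21% of all 17643 features that rose and 0.204% that fell. At an unadjusted p-value under 0.05, 7 were higher and 10 lower, where 3.96% of all features were higher and 3.37% lower. DESeq2 called none higher and 2 lower, AT3G28220 and AT5G26220, against 0.636% and 0.596% of all features. The latter, a gamma-glutamyl cyclotransferase gene of glutathione breakdown, had 1.23, 10.9 and 12.6 TPM in Ler and 0.75, 1.59 and 0.73 TPM in *lug*, with overlapping groups. The median log2 fold change was -0.04, against 0.01 over all features. TPR3 had 3.12, 5.78 and 4.56 TPM in Ler and 2.20, 2.76 and 2.53 TPM in *lug*, without overlap and without a call (log2 fold change -0.69 ± 0.22, SE, adjusted p = 0.53 by edgeR). These libraries are of another accession than the ChIP-seq. The sources used do not say that libraries of a group came from separate plants, so these p-values measure the spread between the libraries.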

How the data were processed

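The authors aligned ChIP-seq reads to TAIR10 with Bowtie2 2.1.0, kept uniquely mapped reads, removed duplicates with SAMtools and called peaks with MACS2 2.1.1 for each library; the control is not given in the sources used here. The deposited lists give a score, the fold enrichment (a ratio over local background), and the -log10 p and -log10 q of each peak. These rank peaks within a list and cannot be compared between libraries. For RNA-seq, the authors' RSEM tables give expected counts, TPM and FPKM.

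Peaks were placed by midpoint, overlaps needed 1 bp, and genes and sequences came from RefSeq TAIR10.1, whose nuclear chromosomes have the lengths of TAIR10. The build was checked by moving the peaks: 44.5% of the pericentromeric summits lay in promoters as listed and 27.1% to 34.1% after shifts of 10000 or 50000 bp. Intervals are Clopper-Pearson for shares and Poisson for densities. Expected counts were rounded and fitted with edgeR 4.0.16 in R 4.3.3 across 18827 genes (16 heat libraries in 6 groups) and 17643 features (Ler and *lug*).

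The pericentromeric peaks, gene lists and tests were chosen with earlier results of these data known. Peaks were named by rule: on each chromosome the highest -log10 q, the 5 widest, the 5 strongest in all 4 lists, in no other list and over 3000 bp from genes, and those beside the borders. Alternatives were a -log10 q of at least 10, other borders, overlaps and promoters, and DESeq2 1.42.0. The motifs, the single-copy 50-base windows, the counts per gene and the printed windows were added after the data were seen. Intervals were computed in Python 3.11.15 with scipy 1.17.1. The ATAC-seq and untagged anti-FLAG libraries and the other time points were not analysed here.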

Additional observations from a re-analysis of the deposited data

How the results depend on the processing

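Placing peaks by their summit gave 491 peaks, a fold of 7.03 and a median width of 526 bp. Borders moved 0.5 Mb towards the centromere gave 11.4 TPL peaks per Mb and a fold between arms and pericentromere of 9.42, and borders moved outwards gave 24.0 per Mb and a fold of 4.71, with median widths of 523 and 529 bp. Per Mb of single-copy sequence the fold was 6.08 and per protein-coding gene 2.81, both chosen after seeing the data. At a -log10 q of at least 10, 126 peaks remained (4.05 per Mb, median width 960.5 bp against 1452 bp on the arms, median fold 3.57), with 100% overlapped by TPL in *morchex*, 60.3% by LUG in WT and 83.3% by LUG in *morchex*, against 100%, 62.3% and 85.5% on the arms. A 50% reciprocal overlap gave 83.9%, 6.53% and 19.2% (arms 76.4%, 2.88% and 11.4%), other lists at a -log10 q of at least 10 gave 48.2%, 5.92% and 12.2% (arms 45.1%, 5.96% and 12.2%), and lists of 2721 peaks each gave 86.7%, 59.3% and 57.0% (arms 85.0%, 58.6% and 60.3%). A promoter of 3000 bp held 72.7% of the summits. The cause of these shifts was not tested beyond the construction of each setting.

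In *morchex* at T0, 1 gene with a pericentromeric TPL promoter summit, AT3G28220, was called. The count was 0 in a fit to the T0 libraries alone, 0 to 1 with each library left out, and 2 with a promoter of 3000 bp, where AT2G15810 rose. These were 2 of 226 tested, against 46 higher and 9 lower of all 18827 genes. In *lug*, where none was called, DESeq2 called 2 and a promoter of 3000 bp 1. An unadjusted p-value under 0.05 with a fold change over 2 called 4 of 145. With that setting 211 of all 17643 features were higher and 236 lower. Leaving out each library in turn gave 0, in fits that called as few as 5 higher and 2 lower of all features. With the replicate number as a replicate block, the count was 0 in *morchex*, where 40 of all genes were called higher and 9 lower. In *lug* that fit called 0 of all features, so its count of 0 says nothing about these genes. The numbers do not pair the libraries, since the deviations of same-numbered libraries correlated at -0.20 to 0.09 at T0 and -0.51 to -0.01 in Ler and *lug*. Each peak list is 1 library of unknown depth, so no value here carries replicate error.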
